A study of Mus musculus with 6 samples.

Results

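Cytokines, chemokines and other secreted inflammatory mediators were examined as 1 set of 42 genes in mouse bone marrow stem and progenitor cells with and without p65. The set was taken by gene name from the array annotation, and 41 of the 42 genes had a row with that single symbol, out of 19938 genes compared in all. Each of the 41 had 1 such row. Thpo, the thrombopoietin gene, was not analysed here. Expression was measured on Affymetrix arrays in cells of 3 mice labelled p65 wild-type and 3 mice labelled p65 knockout, 1 array per mouse. All 6 samples were lineage-negative, Flk2-negative, c-kit-positive and Sca-1-positive bone marrow cells. The series' title places the deletion in the hematopoietic compartment. The Cre driver, the alleles that the wild-type mice carry, and the age of the mice are not described in the sources used here, and no treatment is named.

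NF-κB is a family of dimeric transcription factors that inhibitor proteins hold in the cytoplasm until a signal such as tumour necrosis factor, interleukin 1 or a microbial product releases them. The subunit p65, encoded by Rela, carries the strong activation domain of the classical dimers, and many cytokine and chemokine genes have NF-κB binding sites near their start and are transcribed when it reaches the nucleus. In bone marrow these secreted proteins act on stem and progenitor cells, on their surroundings and on the traffic of leukocytes.

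The sites that NF-κB is known to bind share a pattern of 10 bases called the κB consensus. Promoter sequence from RefSeq (mouse assembly GRCm38.p6, 250 bases before to 50 after the gene's start) was found for 28 of the 42 genes. A match to the κB consensus, on either strand, lay in the promoters of 9 of these 28 genes, against 5.14% of all 27025 genes in that table (4.51% of its 32851 promoters, since a gene can have several). The matches are shown as letters that fit this pattern, with the match in capitals and the strand of the gene printed 5′ to 3′. Whether NF-κB acts on these genes through the matches shown was not tested. A match is a description of the letters and is not a measurement of binding. In Cxcl1, Cxcl2 and Ptx3 a pair of matches overlap, shifted by 1 base.
Cxcl1 (chr5:90891164-90891194, plus strand): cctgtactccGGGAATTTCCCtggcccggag
Cxcl2 (chr5:90903792-90903822, plus strand): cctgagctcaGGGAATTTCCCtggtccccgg
Csf1 (chr3:107760604-107760633, minus strand): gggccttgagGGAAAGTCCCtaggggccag
Ccl20 (chr1:83116676-83116705, plus strand): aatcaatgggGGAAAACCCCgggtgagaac
Ptx3 (chr3:66219876-66219906, plus strand): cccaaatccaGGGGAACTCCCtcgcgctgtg
Vegfa (chr17:46032476-46032505, minus strand): tagtggcctaGGGGCTCCCCgaaaggcggt

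The other 3 genes with a match are printed as the whole promoter window, since the largest differences and the widest spread among the members concern them. In Ccl9 the match begins 35 bases before the start, and in Il6 it begins 44 bases before it. In Cxcl10 matches begin 159 and 103 bases before the start. The capitals farther upstream in Cxcl10, 213 bases before the start, mark a match to the core of the interferon-stimulated response element, which did not overlap a κB match in any member. That core, on either strand, lay in the promoters of 3.99% of all genes (3.44% of all promoters) and of 3 of the 28 members, Cxcl10, Saa3 and Vegfa.
Ccl9 (chr11:83578587-83578886, minus strand): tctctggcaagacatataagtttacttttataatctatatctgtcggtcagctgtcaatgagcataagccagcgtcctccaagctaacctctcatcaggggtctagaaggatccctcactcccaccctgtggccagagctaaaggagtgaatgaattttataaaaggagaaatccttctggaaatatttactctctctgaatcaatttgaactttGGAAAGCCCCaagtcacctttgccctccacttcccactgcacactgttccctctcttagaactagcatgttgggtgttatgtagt
Il6 (chr5:30012864-30013163, plus strand): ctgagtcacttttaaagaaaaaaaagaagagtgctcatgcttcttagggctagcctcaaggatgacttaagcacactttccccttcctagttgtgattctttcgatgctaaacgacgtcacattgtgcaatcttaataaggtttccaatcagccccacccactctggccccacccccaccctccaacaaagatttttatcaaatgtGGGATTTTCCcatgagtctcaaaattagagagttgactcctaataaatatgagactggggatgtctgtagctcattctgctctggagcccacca
Cxcl10 (chr5:92348840-92349139, minus strand): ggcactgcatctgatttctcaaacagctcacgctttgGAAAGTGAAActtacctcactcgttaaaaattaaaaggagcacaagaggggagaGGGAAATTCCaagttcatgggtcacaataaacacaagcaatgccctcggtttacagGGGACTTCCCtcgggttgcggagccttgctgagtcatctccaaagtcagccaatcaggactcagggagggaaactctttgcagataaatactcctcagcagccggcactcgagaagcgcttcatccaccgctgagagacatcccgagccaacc

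The arrays themselves differed. Array medians on the log2 scale ran from 5.72 to 5.98 and array SDs from 2.03 to 2.29. Wild-type replicate 1 stood apart, with the highest median and the lowest SD, and its background level, the 95th percentile of 1027 olfactory receptor genes, was 6.87 against 5.39 to 5.71 in the other arrays. Olfactory receptor genes are silent in blood cells as textbook knowledge, so a gene was called above background in an array where its signal exceeded that level. Rela, the targeted gene, had signals of 7.52, 7.89 and 7.92 in the wild-type arrays and 7.33, 7.48 and 7.35 in the knockouts, with no overlap and a log2 fold change of -0.39 (SE 0.16, limma adjusted p = 0.209). Where the probes lie relative to the deleted part is not described, so this is a weak check of the labels. Of the genes of the sort, Kit lay above background in all 6 arrays, and so did Flt3, which encodes the Flk2 receptor that the sort selected against. Ly6a, the gene of Sca-1, was not measured here. Cd34, which was not part of the sort, also lay above background in all 6 arrays. The design text states that there were no technical replicates, and whether mice shared litters is not described. Of the other marker lists, 0 of 7 B cell, 0 of 7 erythroid and 0 of 6 megakaryocyte markers passed limma's adjusted threshold (1, 3 and 1 at an unadjusted p under 0.05). Their median log2 fold changes were 0.18, 0.54 and -0.003, with 1, 1 and 3 negative values. The erythroid markers' summed linear signal ran from 2784 to 4347 in wild-type and from 3742 to 6791 in knockout.

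Most members gave little signal. In every array, 8 of the 41 lay above background: the cytokine genes Il12a and Il15, the growth factor genes Tgfb1, Angpt1 and Vegfa, and the chemokine genes Ccl4, Ccl5 and Ccl9. These are 19.5% of the members, and 31.7% of all genes met the same criterion. Another 12 were above it in some arrays, and 21 (51.2%, against 37.9% of all genes) in none. Without wild-type replicate 1, with its high background, 11 members were above it in the remaining 5 arrays, the additions being Osm, Csf1 and Cxcl10, and 21 were in none. The count depended on the background genes chosen, from 2 members (Tgfb1 and Angpt1) with keratin-associated protein genes to 19 with vomeronasal receptor genes. A signal below the level is not shown to differ from background. In bulk samples like these, fewer cells of a kind and less RNA per cell cannot be told apart, and signals of different genes cannot be ranked because each probe set has its own response.

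**Figure D1:**
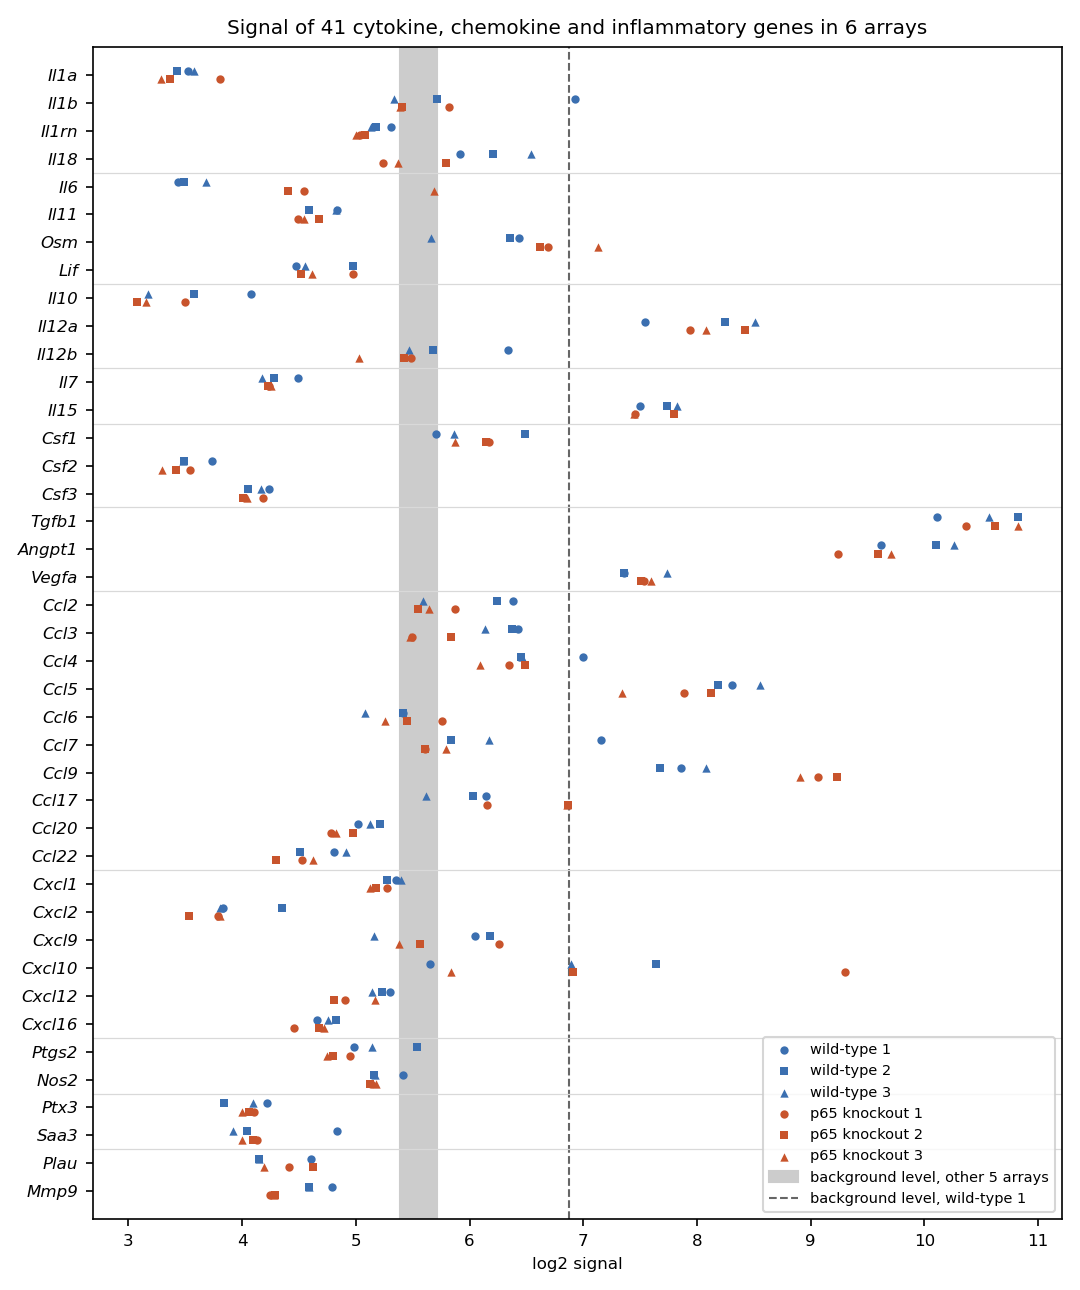
Log2 signal (x axis) of the 41 measured members (rows, grouped by role) in 3 wild-type (blue) and 3 knockout (orange) arrays, where circles, squares and triangles are replicates 1, 2 and 3. The grey band spans the background levels of 5 arrays (5.39 to 5.71) and the dashed line marks that of wild-type replicate 1 (6.87), and 21 members lie above their array's level in no array.

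Knockout was compared with wild-type to ask which of these genes differ when p65 is deleted. Ccl9, a CC chemokine gene expressed in myeloid cells, rose, and the other 40 members did not pass the test. The 1 member called (2.44% of 41) stands beside 0.818% of all genes called in either direction and 0.687% called higher. None of the members fell, while 10 had an unadjusted limma p under 0.05 (24.4%, against 21.6% of all genes). The groups did not overlap for 13 members (31.7%, against 34.6% of all genes). Among them, 4 were higher in knockout (9.76%, against 19.2% of all genes) and 9 lower (22%, against 15.4% of all genes). In this fit the share with non-overlapping groups is near that of all genes and says nothing particular about the members. With quantile normalization 12 members did not overlap, 7 higher and 5 lower, against 25.8% of all genes. With arrays centred on their medians 7 of the 41 did not, 5 higher and 2 lower, against 33.2% of all genes. Both the count and the split between higher and lower thus moved with the scaling.

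The log2 fold changes of the members had a median of -0.15, beside -0.04 over all genes. A negative value was found for 28 members and a positive one for 13. Dim genes in general had negative values in these arrays: with all genes split by mean signal into 3 classes of equal size, the median was -0.22 in the dim class, -0.09 in the middle class and 0.30 in the bright class. The members in those classes, 19, 15 and 7 in number, had medians of -0.17, -0.15 and 0.05. The members' median was 0.00 with quantile normalization and 0.01 with cyclic loess normalization. It was -0.003 where each array's median was set to the same value, a step that adds 0.15 to every log2 fold change. The medians over all genes in those 3 scalings were 0.02, -0.01 and 0.10. The members' shared direction was thus not held across scalings. Centring moves all genes alike, so it cannot tell whether the members differ from other genes.

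**Figure D2:**
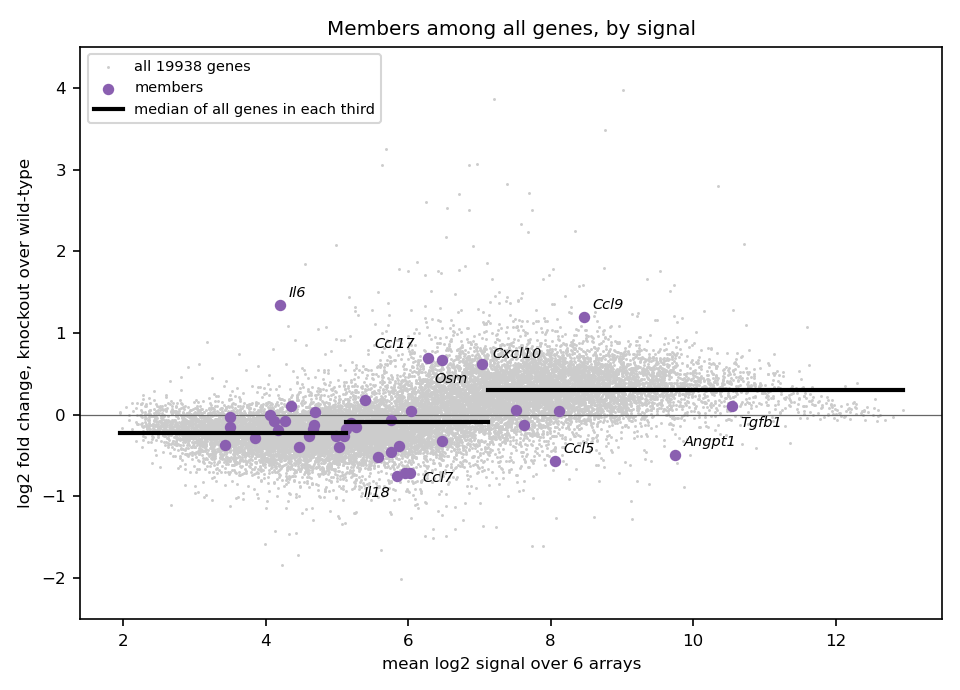
Log2 fold change of knockout over wild-type (y axis) against mean log2 signal over 6 arrays (x axis) for all 19938 genes (grey) and the 41 members (purple), with the median of all genes in each class of mean signal as black bars at -0.22, -0.09 and 0.30. Ccl9 and Il6 lie above the other members, and Angpt1 and Ccl5 lie below the median of their class.

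Ccl9 is the member with the clearest difference. Its log2 signals were 7.86, 7.68 and 8.08 in the wild-type arrays and 9.06, 9.23 and 8.90 in the knockouts. Every knockout array was higher than every wild-type array, and the arrays of each group lay close together. The means were 7.87 ± 0.20 (SD, n = 3) and 9.06 ± 0.16 (SD, n = 3), so that Ccl9 rose 2.29-fold, a log2 fold change of 1.19 (SE 0.16, limma adjusted p = 0.0239). The protein encoded, also known as MIP-1γ, signals through the receptor CCR1, whose gene Ccr1 lay above background in no array. The call was held with the replicate number as a block (adjusted p = 0.0203) and without wild-type replicate 1 (1.19 on the log2 scale, adjusted p = 0.0173). It was lost without any one of the other 5 arrays (1.10 to 1.30 on the log2 scale, limma adjusted p from 0.0588 to 0.175), with quantile normalization (0.96, adjusted p = 0.0649) and with cyclic loess normalization (0.87, adjusted p = 0.0686).

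Genes of granulocyte-monocyte progenitors moved the same way as Ccl9. Of 9 measured markers of these cells 8 rose and 0 fell, among them Elane, the neutrophil elastase gene (log2 fold change 3.98), and Ctsg, the cathepsin G gene (2.80). Their summed signal on the linear scale ran from 3533 to 4302 in the wild-type arrays and from 14659 to 16913 in knockout, and none was at background in every array. Mature neutrophil markers did not share this direction. Lcn2, with wild-type signals below background in all 3 arrays, rose (2.71), while 8 of the 10 had negative log2 fold changes, and the median was -0.28. Wild-type replicate 1, with its high background, was the highest array for 7 of the 10, against 36.1% of all genes. S100a9 (-0.71) had 8.07 there, 6.72 and 7.17 in the other wild-type arrays and 6.56 to 6.70 in knockout. The neutrophil markers' sums were 478 to 791 in wild-type and 749 to 859 in knockout. Ltf, Ly6g, Mmp8, Ngp and Retnlg were at background in every array. Of 10 macrophage markers 0 passed limma's adjusted threshold and 1, Cd68 (1.22), had an unadjusted p under 0.05. The values of 7 macrophage markers were negative, the median was -0.08, and wild-type replicate 1 was the highest array for 5 of the 10. The sums were 548 to 646 and 650 to 764, and Adgre1, Marco, Mrc1 and Siglec1 were at background in every array. The part of these cells in the level of Ccl9 was not tested.

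Ccl9 lies in a run of CC chemokine genes on chromosome 11, in the order Ccl5, Ccl9, Ccl6, Ccl3 and Ccl4, with no other protein-coding gene between them in the RefSeq table. Its neighbours did not share its difference. Ccl5, which encodes RANTES, a chemokine of T cells and other leukocytes, had signals of 8.31, 8.18 and 8.55 in the wild-type arrays and 7.89, 8.12 and 7.34 in the knockouts. All 3 knockout values were lower, with the lowest in replicate 3, and the log2 fold change of -0.56 did not pass (SE 0.22, limma adjusted p = 0.196). Of 9 measured markers of T and NK cells, which are known to express Ccl5, 7 had negative log2 fold changes without passing, with a median of -0.35. Wild-type replicate 1, with its high background, was the highest array for 6 of the 9. Dim genes in general had a median of -0.22, so these negative values are not particular to the list. Nkg7 rose (1.09, limma adjusted p = 0.0483), a call lost with quantile normalization, centring and robust variance (adjusted p = 0.0532, 0.0529 and 0.0515) and without any one array other than wild-type replicate 1. The list's summed signal, 1271 to 1749 in wild-type and 2629 to 2964 in knockout, therefore follows Nkg7. Cd3d, Cd3g, Cd4, Klrk1 and Ncr1 were at background in every array, and the part of these cells in the level of Ccl5 was not tested. Ccl6, which is close to Ccl9 in sequence and also a gene of myeloid cells, had signals of 5.42, 5.41 and 5.08 against 5.75, 5.45 and 5.26. The groups of Ccl6 overlap near the background level (log2 fold change 0.18, 95% interval -0.22 to 0.59).

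Ccl3 and Ccl4 encode the macrophage inflammatory proteins MIP-1α and MIP-1β, which attract leukocytes. Ccl3 had signals of 6.43, 6.37 and 6.14 in the wild-type arrays and 5.50, 5.84 and 5.47 in the knockouts. The groups did not overlap, and the log2 fold change was -0.71 (SE 0.16, limma adjusted p = 0.0839). With array weights or without the dim genes, where fewer genes were tested, Ccl3 passed as lower (adjusted p = 0.0357 and 0.0445). Ccl4 had signals of 7.0, 6.45 and 6.46 in the wild-type arrays and 6.35, 6.49 and 6.09 in the knockouts. Its groups overlapped (log2 fold change -0.33, limma adjusted p = 0.332). Ccl3 and Ccl4 overlap in the RefSeq table, so their signals may not be fully separable.

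**Figure D3:**
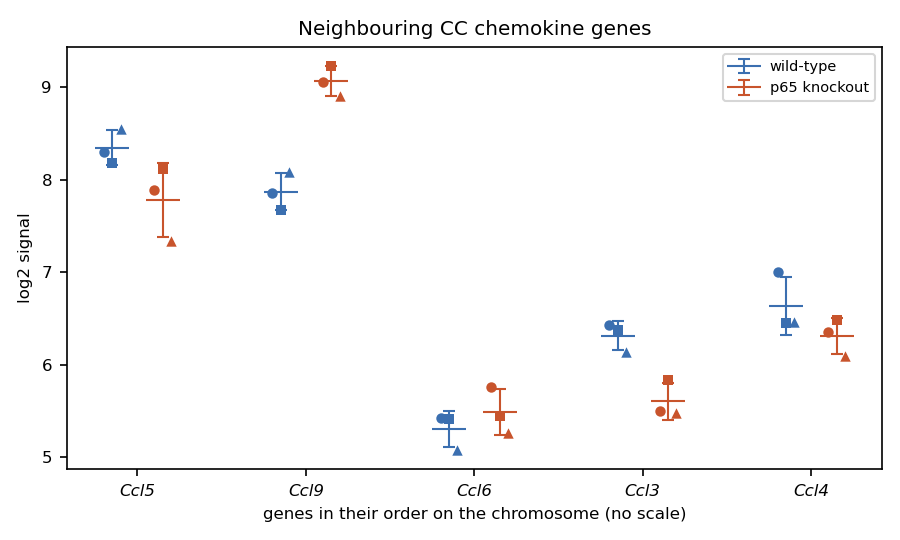
Log2 signal (y axis) of 5 neighbouring CC chemokine genes in 3 wild-type (blue) and 3 knockout (orange) arrays, with symbols for replicates 1 (circle), 2 (square) and 3 (triangle), bars at the mean and whiskers of 1 SD. Ccl9 is higher in all 3 knockout arrays, Ccl5 and Ccl3 are lower in all 3, and the groups of Ccl6 and Ccl4 overlap.

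The remaining CC chemokines did not pass. Ccl17, which encodes a ligand of CCR4 made by dendritic cells, had signals of 6.15, 6.03 and 5.62 in the wild-type arrays and 6.16, 6.86 and 6.86 in the knockouts. Knockout replicate 1 lay just above the highest wild-type array, and the log2 fold change of 0.69 did not pass (SE 0.23, limma adjusted p = 0.162). Ccl7, a monocyte-attracting chemokine gene, had signals of 7.15, 5.84 and 6.17 in the wild-type arrays and 5.61, 5.61 and 5.79 in the knockouts. Wild-type replicate 1 was the highest by far, and the log2 fold change of -0.72 became -0.33 without it (limma adjusted p = 0.224 and 0.185). Ccl2, which encodes the monocyte chemoattractant MCP-1, had a log2 fold change of -0.39, or -0.23 without wild-type replicate 1, with overlapping groups. Ccl20 and Ccl22, genes of ligands of CCR6 and CCR4, lay above background in no array, with log2 fold changes of -0.26 and -0.27.

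None of the 4 interleukin 6 family genes passed the test, and Il6 had the highest log2 fold change of the members. Il6, whose product acts on progenitors and on the acute phase response, had signals of 3.44, 3.49 and 3.68 in the wild-type arrays and 4.55, 4.40 and 5.68 in the knockouts. Only knockout replicate 3 exceeded the background level, so the other 5 values are not shown to differ from background and the size of the difference is uncertain. The log2 fold change was 1.34 (SE 0.31, limma adjusted p = 0.087), and with the replicate number as a block Il6 passed as higher (adjusted p = 0.0248). It was 0.94 without knockout replicate 3 and 1.29 to 1.58 without any one other array.

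Osm, the oncostatin M gene, had signals of 6.43, 6.35 and 5.66 in the wild-type arrays and 6.69, 6.62 and 7.13 in the knockouts. All knockout arrays lay above the wild-type arrays and above background (log2 fold change 0.66, SE 0.24, limma adjusted p = 0.178). With array weights Osm and Ccl17 passed as higher (adjusted p = 0.0396 and 0.0425). Il11 and Lif, which act through the same receptor chain gp130, lay above background in no array, at -0.18 and 0.04. The genes of the receptor chains had log2 fold changes of 0.74 for Il6ra, 0.53 for Il6st (gp130) and -0.44 for Osmr, none past the test, with Osmr above background in no array. Mast cells and basophils are also known to make interleukin 6 and oncostatin M. Of 10 measured markers of these cells 3 rose, among them Fcer1a (3.05) and Ms4a2 (1.73), with a median of 0.91. The wild-type signals lay below background in all 3 arrays for Fcer1a and in 2 for Ms4a2, so the size of these differences is uncertain. The summed signals were 1721 to 2782 in wild-type and 3377 to 4150 in knockout, and Tpsb2 was at background in every array. Their part in the levels of Il6 and Osm was not tested.

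Il18 was the member of the interleukin 1 family with the largest difference. Interleukin 18 is made as a precursor that caspase 1 cleaves and it drives interferon gamma production. Its gene had signals of 5.91, 6.20 and 6.54 in the wild-type arrays and 5.24, 5.79 and 5.37 in the knockouts. The groups did not overlap, and the log2 fold change was -0.75 (SE 0.21, limma adjusted p = 0.123). Without wild-type replicate 1 Il18 passed as lower (-0.90, adjusted p = 0.0448), and it did so with array weights (adjusted p = 0.0216). Wild-type replicate 1 lay below its own background level for this gene, and 2 of the 3 knockout arrays did.

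Il1b had signals of 6.93, 5.71 and 5.33 in the wild-type arrays and 5.82, 5.41 and 5.39 in the knockouts. The highest value came from wild-type replicate 1, and the log2 fold change of -0.45 became 0.02 without that array. Il1a and Il1rn, the genes of interleukin 1α and of the receptor antagonist, lay above background in no array, at -0.02 and -0.17. Casp1 and Pycard, genes of the caspase and of the adaptor in the inflammasome that processes interleukins 1β and 18, had log2 fold changes of 1.03 and 0.75 (limma adjusted p = 0.0833 and 0.0819). Without wild-type replicate 1 both passed as higher (0.79 and 0.59, adjusted p = 0.0389 and 0.0292), and Casp1 did so with the replicate number as a block (adjusted p = 0.0488).

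Of the genes for interleukins 10 and 12, only Il12a lay above background. It encodes the p35 chain of interleukin 12, and its signals were 7.54, 8.25 and 8.51 in the wild-type arrays and 7.94, 8.43 and 8.08 in the knockouts. The groups overlapped, with a log2 fold change of 0.05 (95% interval -0.54 to 0.64). Il12b, the gene of the partner chain p40, and Il10, an inhibitory cytokine gene, lay above background in no array, at -0.52 and -0.37. Wild-type replicate 1 was the highest array for both, and without it they were -0.26 and -0.14.

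Il15, which encodes a survival factor of natural killer and memory T cells, was above background in every array. Its signals were 7.50, 7.74 and 7.82 in the wild-type arrays and 7.46, 7.80 and 7.44 in the knockouts. The groups overlapped (log2 fold change -0.12, 95% interval -0.49 to 0.25). Il7, a lymphoid growth factor gene that stromal cells are known to express, lay above background in no array, at -0.07.

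The 3 growth factor genes of the stem cell surroundings lay above background in every array, and none passed the test. Tgfb1, whose product holds stem cells in quiescence, had signals of 10.11, 10.82 and 10.57 in the wild-type arrays and 10.36, 10.62 and 10.82 in the knockouts. The groups overlapped, and the difference of 0.10 had a 95% interval of -0.38 to 0.59 on the log2 scale. Vegfa, the vascular growth factor gene, had signals of 7.36, 7.36 and 7.74 against 7.54, 7.50 and 7.60. That difference was 0.06 (95% interval -0.29 to 0.41).

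Angpt1 encodes angiopoietin 1, a ligand of the receptor Tie2 that is encoded by Tek. It had signals of 9.62, 10.11 and 10.26 in the wild-type arrays and 9.24, 9.59 and 9.70 in the knockouts. The groups overlapped only in that wild-type replicate 1 lay below knockout replicate 3, and the log2 fold change of -0.49 did not pass (SE 0.21, limma adjusted p = 0.225). Without that array it was -0.68 (adjusted p = 0.0564), and with array weights Angpt1 passed as lower (adjusted p = 0.0375). Tek had a log2 fold change of -0.35 and did not pass. Of 9 measured genes in the list of sort and stem cell markers, 7 had negative log2 fold changes, with a median of -0.59. Hlf fell (-1.27, limma adjusted p = 0.0485), and Meis1 (-0.59), Procr (-0.69) and Mecom (-1.22) did not pass. Slamf1 was at -0.09, and Cd34 (0.04) and Flt3 (0.06) were positive. The list's summed signals, 4797 to 6572 in the wild-type arrays and 4047 to 5008 in knockout, overlapped. The call of Hlf was lost with centring (-1.13, adjusted p = 0.0707), with robust variance (adjusted p = 0.0515) and without any one array other than wild-type replicate 1. Stroma and endothelium markers, from cells also known to express Angpt1, had sums of 641 to 844 and 577 to 620, with 0 of 12 past limma's adjusted threshold, 1 at an unadjusted p under 0.05 (Emcn, -1.48) and 6 at background in every array (Alpl, Cdh5, Dcn, Lepr, Lum and Pdgfra). Wild-type replicate 1 was the highest array for 9 of these 12 markers. The part of stroma and endothelium in the level of Angpt1 was not tested.

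Of the colony-stimulating factor genes, only Csf1 lay above background, in 5 of the 6 arrays. Csf1, which encodes the macrophage growth factor, had signals of 5.70, 6.49 and 5.86 in the wild-type arrays and 6.17, 6.15 and 5.87 in the knockouts, with overlapping groups (log2 fold change 0.05, 95% interval -0.45 to 0.55). Csf2 and Csf3, the genes of the granulocyte-macrophage and granulocyte factors, lay above background in no array, at -0.15 and -0.07. The receptors of these factors gave other values. Csf1r rose, with a log2 fold change of 1.71 (SE 0.18, limma adjusted p = 0.00871), from wild-type signals below background in all 3 arrays. Csf2rb (1.24) did not pass, and Csf3r had a log2 fold change of 0.07.

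**Figure D4:**
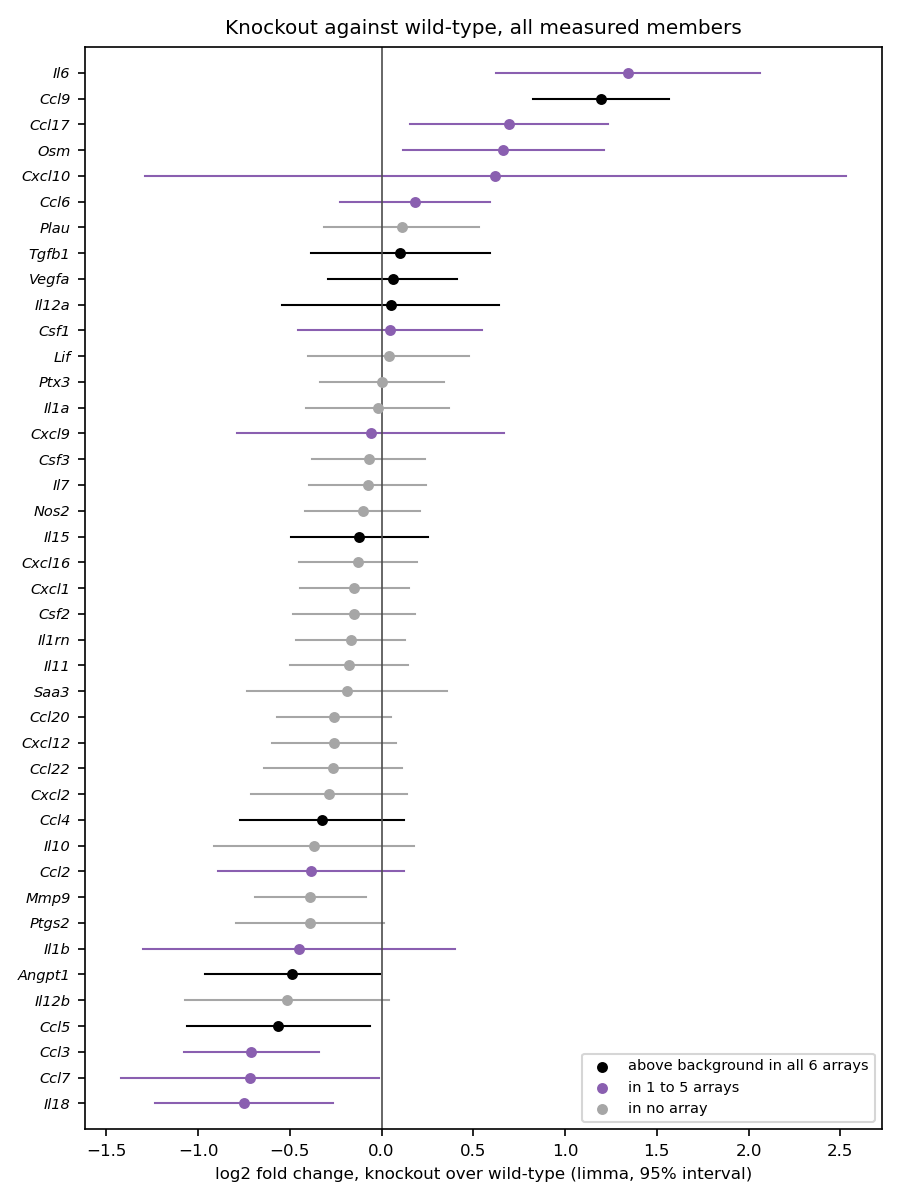
Log2 fold change of knockout over wild-type (x axis) with its 95% limma interval for the 41 measured members, sorted by value and coloured by the number of arrays above background. Ccl9 (1.19) is the only one past the adjusted threshold, and Il6 (1.34) above it was over background in 1 array.

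Cxcl10 varied more between arrays of a group than any other member. It encodes IP-10, a chemokine induced by interferons and NF-κB that attracts activated T cells. Its signals were 5.65, 7.64 and 6.90 in the wild-type arrays and 9.30, 6.91 and 5.84 in the knockouts. Both groups spanned a wide range (SD 1.00 and 1.78), knockout replicate 1 was far above the rest, and the log2 fold change of 0.62 turned to -0.36 without it (limma adjusted p = 0.634 with all arrays). In a list of interferon-induced genes written after these values were seen, knockout replicate 1 was the highest array for 8 of the 8 measured members. Ifit1 had 9.03 there and 6.06 to 7.04 in the other arrays, while Ifit2 had 7.33 there and 7.26 in wild-type replicate 3. Irf7 and Usp18 were higher in all 3 knockouts than in every wild-type array, with log2 fold changes of 1.44 and 1.14. Irf7 had 9.18 in knockout replicate 1, 7.91 and 7.25 in the other knockouts and 6.26 to 7.04 in wild-type. The list's mean log2 signal was 8.07 in the knockouts replicate 1, 6.88 and 6.51 in the other knockouts and 6.35, 6.63 and 6.77 in wild-type. None of the 8 passed limma's adjusted threshold, and 2 had an unadjusted p under 0.05. The part of an interferon response in the level of Cxcl10 was not tested.

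**Figure D5:**
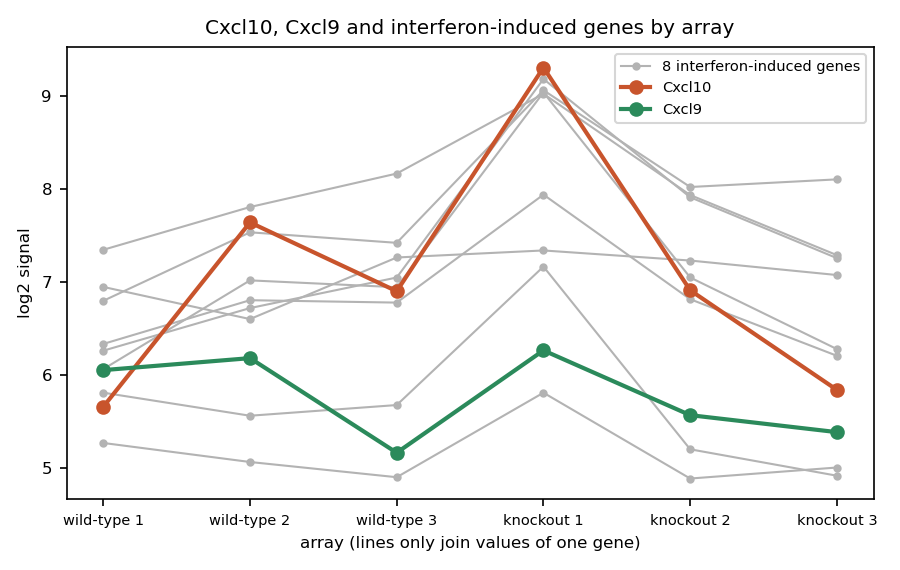
Log2 signal (y axis) of Cxcl10 (orange), Cxcl9 (green) and 8 interferon-induced genes (grey) in each of the 6 arrays (x axis), where lines only join the values of 1 gene. Cxcl10 reaches 9.30 in the knockouts replicate 1, where the 8 interferon-induced genes also have their highest values.

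Cxcl9, the neighbouring interferon-induced chemokine gene that shares the receptor CXCR3, had signals of 6.05, 6.18 and 5.16 in the wild-type arrays and 6.26, 5.56 and 5.38 in the knockouts. The groups overlapped around the background level, at a log2 fold change of -0.06. Cxcl1 and Cxcl2, the neutrophil-attracting chemokine genes with the κB matches shown above, lay above background in no array, at -0.15 and -0.29. Their receptor gene Cxcr2 had a log2 fold change of 1.14 and did not pass (limma adjusted p = 0.0531), while it passed as higher under the replicate block, without wild-type replicate 1 and in 3 further alternatives. Cxcl12, the stem cell retention factor made by marrow stroma, and Cxcl16 lay above background in no array, at -0.26 and -0.13. Cxcr4, the receptor gene of Cxcl12, was above background in every array and had a log2 fold change of 0.25 (95% interval -0.09 to 0.59).

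The enzymes and other secreted proteins of the set gave signals at background. Ptgs2 and Nos2, the inducible cyclooxygenase and nitric oxide synthase genes, Ptx3 and Saa3, genes of a soluble pattern recognition protein and an acute phase protein, and Plau and Mmp9, genes of secreted proteases, lay above background in no array. Their signals ran from 3.84 (Ptx3) to 5.54 (Ptgs2), and their log2 fold changes from -0.39 (Ptgs2 and Mmp9) to 0.11 (Plau). The knockout values of Ptgs2 and Mmp9 all lay below the wild-type values. With signals at background those differences are not shown to be changes in transcript.

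Over the receptors of these factors, 2 of 37 measured genes rose, 0 fell and 35 did not pass, with a median log2 fold change of 0.01 beside -0.04 over all genes. Ccr2, the receptor of the Ccl2 and Ccl7 proteins, rose by 2.53 (SE 0.33, limma adjusted p = 0.0207), also from wild-type signals below background in all 3 arrays. The other was Csf1r. Without wild-type replicate 1, 5 passed (Csf1r, Ccr2 and Cxcr2 higher, Il2rb and Il18r1 lower), and 5 passed under the block (Csf1r, Ccr2, Csf2rb and Cxcr2 higher, Il18r1 lower). Without wild-type replicate 3 or without knockout replicate 1 none passed, and without wild-type replicate 2 or without knockout replicate 2 only Csf1r did. Csf1r and Ccr2 are also genes of monocyte progenitors. The granulocyte-monocyte progenitor markers given beside Ccl9 moved the same way, while the macrophage markers given there did not pass. The part of these cells in the levels of Csf1r and Ccr2 was not tested.

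Of 24 measured genes of NF-κB feedback and response outside the set, 2 rose, 0 fell and 22 did not pass, with a median of -0.04. Gadd45b, a stress-induced gene, rose by 1.25 (SE 0.18, limma adjusted p = 0.0303). Nfkbib, the gene of the inhibitor IκBβ, rose by 0.77 (SE 0.13, limma adjusted p = 0.0476) and did not pass with quantile or cyclic loess normalization (0.51 and 0.45). Without wild-type replicate 1, 4 passed, with Nfkbia and Ltb lower beside those 2, and without any one of the other 5 arrays none did. With the replicate number as a block 3 passed, Ltb being lower (-0.85) beside those 2. Nfkbia, the gene of the inhibitor IκBα, had a log2 fold change of -0.43 with all arrays, and Tnfaip3, the gene of the feedback inhibitor A20, of -0.17. Of 14 measured genes of cytokine processing and secretion 0 passed limma's adjusted threshold and 4 had an unadjusted p under 0.05. Without wild-type replicate 1, Casp1 and Pycard passed.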

How the data were processed

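Expression in 6 mice, 3 wild-type and 3 p65 knockout by sample title, was measured on 1 array each. The authors deposited log2 expression values. RMA, Partek and Affymetrix Expression Console stand in the submitters' processing notes, without versions. RMA subtracts background, normalizes and summarises probes, which compresses differences near background. The deposited values still differed between arrays in median, SD and background level, as given above, so a shared scale across arrays cannot be assumed. The design text names an exon array, while the annotation used to name rows is that of a gene array. Per the labels' protocols, RNA was amplified with a whole-transcriptome kit before labelling, which can alter signal range between samples.

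Of 35557 rows, 21789 had 1 gene symbol, and the row with the highest mean was kept per gene. A limma model (version 3.58.1, under R 4.3.3) holding just the group was fitted to all 19938 genes, knockout minus wild-type, with Benjamini-Hochberg adjustment at 0.05. The fit was tested on simulated data whose noise was independent and, for each gene, of equal size in all arrays. That test does not cover an array that stands apart, such as wild-type replicate 1. Exact permutation tests of single genes cannot give p below 0.1. Intervals are 95% intervals of the same fit. Same-numbered arrays of the 2 groups deviated from their group means with correlations of 0.37, 0.12 and 0.16, each above 0.1, the minimum taken to mean that numbers pair the arrays. Pairs with different numbers reached 0.19 and 0.18 (wild-type 2 with knockout 3, and wild-type 3 with knockout 2), so replicates 2 and 3 do not correlate best with their own number. The labels state no batch and no pairing, so the main fit was left without a block. Results of a blocked fit stand beside the member and pathway calls that the block changes. The named genes are all members, up to 6 called genes of each pathway list (or 2 where none was called) and up to 2 of each marker list. Other genes named were chosen after their values were seen. The members and all lists were chosen with earlier results of these data known. Alternatives were the replicate block, quantile, cyclic loess and median-centred scaling, a filter on dim genes, trended and robust variance, array weights, the mean of a gene's rows, other background genes and leaving out each array.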

Additional observations from a re-analysis of the deposited data

How the results depend on the processing

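Over 15 alternatives, 21 of the 41 members kept the sign of their log2 fold change in every alternative that gave them a value, and 20 turned it in at least 1. Ccl9 stayed higher in all of them (0.87 to 1.34 on the log2 scale). Blocking on the replicate number, 372 genes passed in place of 163, among them 2 members (Il6 and Ccl9), 5 receptor genes, 3 feedback genes (with Ltb lower) and 1 processing gene, and the block changed no other call among the members. With quantile normalization 104 genes, 0 members and 1 feedback gene passed, and the members' median was 0.00214. With cyclic loess 0 members and 1 feedback gene passed and the median was 0.0111. With arrays centred on their medians 7 members had non-overlapping groups, against 33.2% of all genes, and the median was -0.00299. Of the genes called, 84% were higher in knockout in the fit as reported, 96.9% with centring and 68% with cyclic loess. Without the dim genes, which leaves 10818 genes and 16 members, 546 genes, 2 members, 4 receptor genes and 2 processing genes passed, and the median of the members left was -0.0376. Array weights gave wild-type replicate 1 a weight of 0.116, and 1599 genes, 6 members, 7 receptor genes, 5 feedback genes and 3 processing genes passed.

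Leaving out 1 array at a time gave 21 to 929 genes, 0 to 2 members, 0 to 5 receptor genes, 0 to 4 feedback genes and 0 to 2 processing genes, with the highest count in each case without wild-type replicate 1. The lowest gene count came without knockout replicate 2, and the members called were 0 without any one array other than wild-type replicate 1. With other background levels, 14 members (90th percentile of olfactory receptor genes), 5 (99th percentile), 2 (keratin-associated protein genes) or 19 (vomeronasal receptor genes) lay above background in every array. The causes of these shifts were not tested. With 3 arrays a group, and 21 members above background in no array, small differences in dim members were not detectable.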
